A study of Rattus norvegicus with 12 samples.

Results

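Matrix metalloproteinases, their tissue inhibitors (TIMPs) and the plasminogen activators were followed in rat small hepatocytes on 3 coatings and in mature hepatocytes. The members are the 10 genes Mmp2, Mmp7, Mmp9, Mmp14, Mmp23, Timp1, Timp2, Timp3, Plau and Plat. They were found by exact match of the gene name given in the scanner files, with control spots left out, which gave 15 probes of 45598 on the array (60 of 58717 spots). Of these 15 probes, 13 were bright enough to be tested, and they cover 8 genes. The probes of Mmp7 and Mmp9 were not tested.

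Matrix metalloproteinases are zinc enzymes that cut collagens, laminins and other matrix proteins, and most are made as inactive proenzymes. TIMPs bind their active sites, and TIMP2 also bridges the Mmp2 proenzyme to the membrane enzyme Mmp14, which starts its activation. Plau (urokinase) and Plat (tissue plasminogen activator) convert plasminogen, a plasma protein made by hepatocytes, into the protease plasmin. In the liver, stellate cells and fibroblasts are known sources of Mmp2, Timp1 and Timp2.

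Small hepatocytes are a proliferating, progenitor-like class of rat liver cell. LN111, LN511 and Mat were cells from F344 rats (the DPPIV+ strain) that had grown in serum-free medium with 10 ng/mL EGF, nicotinamide and dexamethasone. CD44+ cells were sorted from colonies by magnetic beads on day 9 after plating, grown on Matrigel and, at passage 2, kept for 3 h on coated dishes. The coat was laminin-111 in LN111, laminin-511 in LN511 and Matrigel in Mat. Matrigel is a basement membrane extract in which laminin-111 is the main laminin. MH were F344 mature hepatocytes isolated from fresh livers, the control; the labels state no CD44 sort or passage for them. Each group had 3 arrays, and the labels do not tell whether the replicates are separate animals or cultures. The p-values therefore reflect the scatter among these arrays, part or all of which may be technical. Between MH and the others, the cell population, the sort, the culture and its medium, the passages and the coating differ together and cannot be told apart.

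On each of the 12 arrays, 52.18% to 62.75% of spots were well above background and 0 were saturated. The array LN111 replicate 3 stood apart, with 1126 spots marked as outliers against 350 to 499 on the others. Mat replicates 1 and 2 and the 3 MH arrays were on 1 slide, and Mat replicate 3 was on the other slide with LN111 and LN511. LN111 and LN511 thus shared no slide with MH, and only Mat had arrays on each slide. With slide as a block, differences of LN111 and LN511 from MH rest on the Mat arrays to separate slide from group. Hepatocyte markers fitted the labels in part: 10 of 10 were well above background on every MH array and 8 of 10 on every array of each cultured group, where Cyp3a2 was on none. Their summed signal, in units of the array's 75th percentile, was 1000 to 1130 in MH and 121 to 389 in the cultured groups.

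Probe sequences are given for Mmp2, Mmp23 and Plau, the called genes with the largest differences between the laminins. Others are given for Timp1, Timp3 and Mmp9. Not printed are the probes of Mmp7, Mmp14, Timp2 and Plat, Mmp2 A_44_P1087178, and Timp3 A_44_P237664 and A_44_P282443. The printed Timp3 probe is thus a dim one and not the brightest. The printed sequences show which stretch of a gene those probes read. They are copied from the scanner files, 5′ to 3′ and in lower case with no base singled out. Positions are those in the files, whose header names the rn4 build; exon positions were not used here. The Mmp2 probe A_64_P036955 is placed at chr19:15246805-15246864 (minus strand), Mmp23 at chr5:172487032-172487091 (minus), Timp1 across chrX:12542700-12543703 (minus, a span longer than the probe) and Timp3 A_43_P11604 at chr7:19679721-19679780 (minus). The Plau probes A_43_P11703 and A_44_P260036 are placed at chr15:3682076-3682135 and chr15:3680711-3680770 (minus), and Mmp9 at chr3:155992463-155992522 (plus).
Mmp2 A_64_P036955: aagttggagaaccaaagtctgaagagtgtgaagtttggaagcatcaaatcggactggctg
Mmp23 A_42_P667600: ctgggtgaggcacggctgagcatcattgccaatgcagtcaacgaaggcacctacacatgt
Timp1 A_44_P461154: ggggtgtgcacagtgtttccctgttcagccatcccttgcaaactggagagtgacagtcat
Timp3 A_43_P11604: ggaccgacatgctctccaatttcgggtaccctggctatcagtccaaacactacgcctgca
Plau A_43_P11703: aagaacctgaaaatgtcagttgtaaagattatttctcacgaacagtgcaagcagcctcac
Plau A_44_P260036: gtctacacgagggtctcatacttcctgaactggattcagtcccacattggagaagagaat
Mmp9 A_44_P501112: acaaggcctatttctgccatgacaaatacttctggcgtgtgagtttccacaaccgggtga

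Where a gene had several probes, they moved together over the 12 arrays, which is given as a description. Pearson's r was 1 between the probes of Mmp2 and between those of Mmp14, 0.98 for Plau and 0.97 to 0.99 for Timp3. The Mmp14 probes share 50 of 60 bases, so they are not separate readings of the transcript. Mmp2 A_44_P1087178, both Mmp14 probes, Timp1 and Timp2 are averages of up to 10 spots an array, and the other probes have 1. The levels below are log2 signals relative to the 75th percentile of the array, in the order of replicates 1, 2 and 3. Levels of different probes are not compared with each other.

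**Figure D1:**
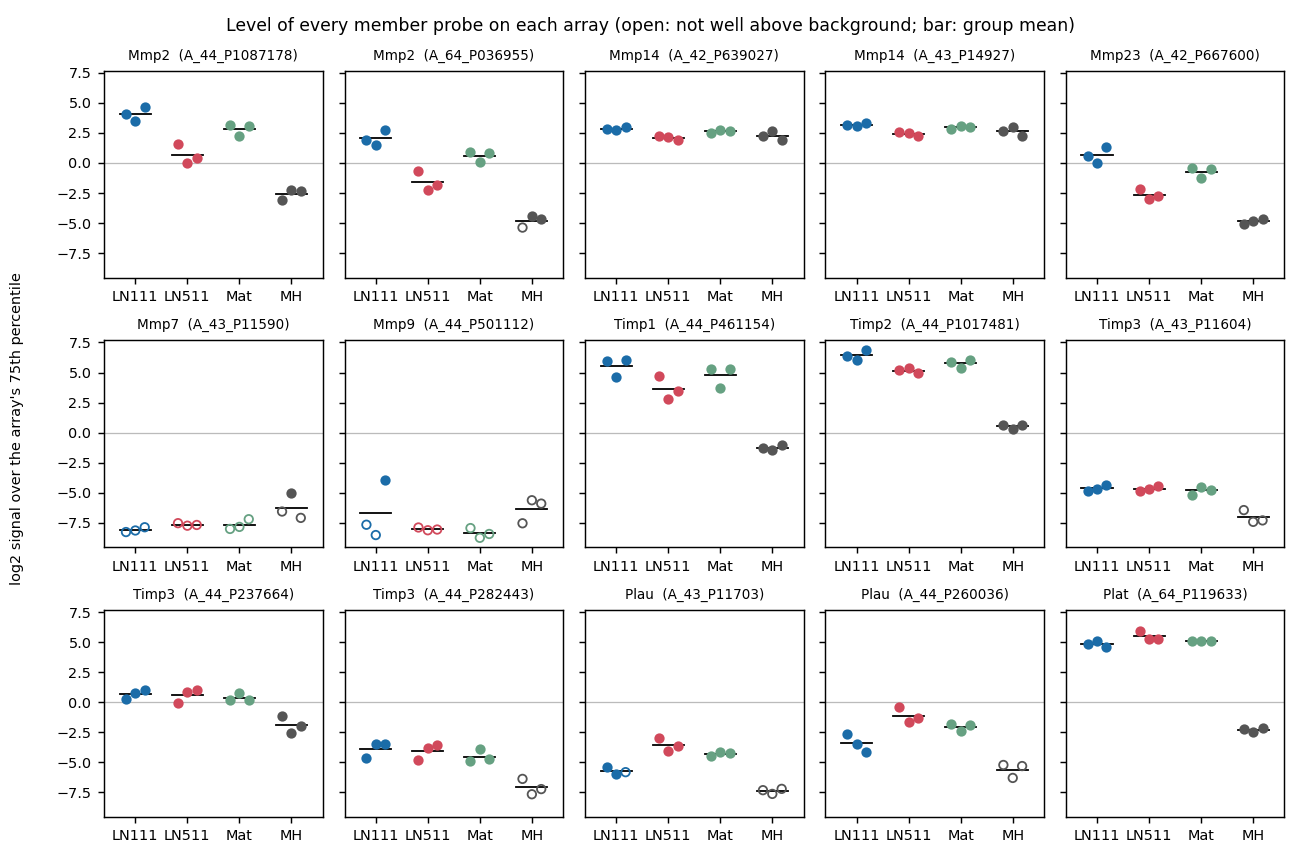
Level (log2 signal over the array's 75th percentile, y axis) of each of the 15 probes on the 12 arrays, by group, with 1 point an array and a bar at the group mean; open points were not well above background. Mmp2 and Mmp23 step down from LN111 over Mat and LN511 to MH, and Plau is highest in LN511. Mmp14 is slightly lower in LN511 than on the other coatings, and each Timp3 probe overlaps between the 3 coatings.

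Mmp2, the gelatinase that degrades basement membrane collagen, showed the widest range of any member over the cultured arrays. On probe A_44_P1087178 its level was 4.08, 3.49 and 4.68 in LN111, 3.20, 2.27 and 3.12 in Mat, 1.57, 0.02 and 0.39 in LN511, and -3.10, -2.25 and -2.36 in MH. The 4 groups did not overlap, with LN111 highest and MH lowest. The probe A_64_P036955 gave the same order, with 1.94, 1.50 and 2.75 in LN111, 0.88, 0.06 and 0.85 in Mat, and -0.64, -2.27 and -1.80 in LN511. In MH it stood at -5.38, -4.44 and -4.68 and was well above background on 2 of 3 arrays. Over the 9 cultured arrays the probes ranged over 4.67 and 5.02 log2.

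Mmp23, a membrane-anchored metalloproteinase that is released by furin-like cleavage, was ordered in the same way. Its level was 0.57, 0.02 and 1.31 in LN111, -0.41, -1.28 and -0.48 in Mat, -2.20, -3.04 and -2.78 in LN511, and -5.04, -4.82 and -4.64 in MH. The groups again did not overlap, and every array of the 12 read the probe well above background.

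Mmp14, the membrane-type enzyme that activates the Mmp2 proenzyme, was above the 75th percentile of the array in every group, mature hepatocytes included. The probe A_42_P639027 stood at 2.80, 2.78 and 2.97 in LN111, 2.49, 2.79 and 2.68 in Mat, 2.24, 2.17 and 1.88 in LN511, and 2.28, 2.67 and 1.90 in MH. LN511 lay below both other coatings with no overlap, and MH overlapped with LN511 and Mat and lay below LN111. On probe A_43_P14927 the levels ran from 2.23 in LN511 to 3.37 in LN111, with MH at 2.65, 3.02 and 2.26.

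Mmp7 (matrilysin, an epithelial metalloproteinase) and Mmp9 (the other gelatinase, typical of white blood cells) gave almost no signal. The Mmp7 probe was well above background on 1 of 12 arrays, MH replicate 2, at a level of -5.05 against -8.29 to -6.58 on the others. The Mmp9 probe was well above background on LN111 replicate 3, the array with the most marked spots, at -3.97, and on none of the other 11, where it stood at -8.77 to -5.64. Each has 1 spot an array. Neutrophil markers, a list for the cells that carry Mmp9, summed to 0.0573 to 0.679 over the 12 arrays, and between 6 and 9 of 10 markers were on no array of a group.

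Timp2, the inhibitor that takes part in the activation of Mmp2, was far higher on the coatings than in MH. Its level was 6.41, 6.01 and 6.91 in LN111, 5.90, 5.36 and 6.06 in Mat, 5.20, 5.34 and 4.94 in LN511, and 0.62, 0.32 and 0.64 in MH. LN511 lay below the other coatings, with the gap to Mat as small as 5.36 against 5.34. Timp1, the secreted inhibitor often raised in liver injury, was 5.93, 4.60 and 6.06 in LN111, 5.33, 3.71 and 5.31 in Mat, and 4.73, 2.78 and 3.49 in LN511. Replicate 2 was the lowest in each of the 3 groups, so the coatings overlapped. In MH Timp1 stood at -1.33, -1.43 and -1.0.

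Timp3, the inhibitor that stays bound to the matrix, did not separate the coatings on any of its 3 probes. On the brightest, A_44_P237664, it was 0.27, 0.75 and 1.01 in LN111, -0.04, 0.83 and 1.04 in LN511, 0.15, 0.79 and 0.14 in Mat, and -1.16, -2.55 and -2.02 in MH. The probes A_43_P11604 and A_44_P282443 ranged from -5.18 to -4.41 and from -4.92 to -3.46 in the cultured groups. Both were well above background on all 9 cultured arrays and on no MH array.

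The activators differed from the metalloproteinases in their order. Plau on probe A_44_P260036 was -0.45, -1.66 and -1.31 in LN511, -1.80, -2.40 and -1.92 in Mat, and -2.67, -3.50 and -4.12 in LN111. LN511 was highest and LN111 lowest, with no overlap between coatings, and the probe was well above background on no MH array. On A_43_P11703 the order was the same, with -3.01, -4.11 and -3.66 in LN511, -4.52, -4.15 and -4.28 in Mat, and -5.40, -6.03 and -5.84 in LN111, where 2 of 3 arrays were well above background. Plat was 5.91, 5.25 and 5.24 in LN511, 5.06, 5.06 and 5.10 in Mat, 4.87, 5.12 and 4.56 in LN111, and -2.24, -2.49 and -2.20 in MH. LN511 lay above both other coatings, and LN111 and Mat overlapped.

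The first comparison asks how the members differ between the cultured small hepatocytes and the mature hepatocytes. Of 13 tested probes, 11 were higher in the mean of the 3 coatings than in MH and 0 were lower, against 31.2% of all 23656 probes tested that were called higher (limma, Benjamini-Hochberg adjusted p under 0.05). They belong to 7 genes: Mmp2, Mmp23, Timp1, Timp2, Timp3, Plau and Plat. Of the 13, 4 were well above background on no MH array, both Plau probes and 2 of Timp3; they were tested only because they were bright in cultured cells, which fixed their direction. Of the other 9, 7 were higher and Mmp14 was not called, beside 22.8% called higher among all 20263 tested probes that were well above background on an MH array. The median difference of all probes was -0.16 log2. Members and lists were chosen with earlier results of these data known. The shares of all probes or genes, here and below, are thus given as a description. In RNA from whole cultures, fewer cells of a type and less RNA per cell cannot be told apart.

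Plat showed the largest difference, 7.44 ± 0.17 log2 (SE of the fit, 173-fold, adjusted p = 5.07e-10), with all 9 cultured arrays above the 3 MH arrays. Timp1 was higher by 5.91 ± 0.48 (60.3-fold, adjusted p = 1.57e-06) and Timp2 by 5.27 ± 0.21 (38.5-fold, adjusted p = 1.01e-08). Mmp2 rose by 5.10 ± 0.37 and 5.20 ± 0.38 on its probes (34.4-fold and 36.7-fold), and Mmp23 by 3.91 ± 0.29 (15-fold, adjusted p = 7.96e-07). Their probes were well above background on every MH array, apart from 1 array for Mmp2 A_64_P036955. The sizes moved with the background correction: with normexp, which models the background, Mmp23 stood at 2.49 and Mmp2 at 4.62 and 3.60, all still called, and Plat at 6.95.

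For probes not well above background on any MH array, the fold is a lower bound. It sets the cultured mean against the higher of the lowest well-above-background signal of each MH array and the signal of the probe itself. Plau was at least 9.33-fold higher on A_44_P260036 (adjusted p = 9.98e-06) and at least 2.12-fold on A_43_P11703, and Timp3 at least 1.89-fold and at least 2.78-fold on its dim probes. An adjusted p printed beside a bound, here and for the listed genes below, is that of the fitted difference and not of the bound. These bounds hold for the background subtraction in the deposited signal. With normexp, Plau A_44_P260036 fell to 1.52 log2 and stayed called, and the other 3 calls were lost, with Plau A_43_P11703 at 0.19 (adjusted p = 0.294) and Timp3 at 0.02 and 0.28 (adjusted p = 0.921 and 0.297). The bright probe of Timp3 rose by 2.46 ± 0.32 log2 (adjusted p = 5.3e-05). Mmp14 did not pass, at 0.25 ± 0.16 (adjusted p = 0.18) and 0.23 ± 0.16 (adjusted p = 0.215). Under quantile scaling, which moved the median of all probes from -0.16 to 0.18, Mmp14 stood at 1.08 and 1.11 and passed (adjusted p = 5.87e-05 and 4.65e-05), in unscaled values at 1.29 and 1.27, and without MH replicate 2 at 0.44 and 0.42 (adjusted p = 0.0265 and 0.0355).

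Each coating was also set against MH alone, in comparisons that share the MH arrays. In LN111, 13 of 13 tested probes were higher (27.1% of all probes), in LN511 11 of 13 (31.5%) and in Mat 11 of 13 (26.3%). Without the 4 probes that no MH array read, 9 of 9 were higher in LN111 (19.4% of all such probes), 7 of 9 in LN511 (23.1%) and 7 of 9 in Mat (18.9%). With normexp, both dim Timp3 probes were lost in each coating (0.07 and 0.42 in LN111, 0.25 and 0.53 in LN511, -0.28 and -0.12 in Mat). Both Plau probes were lost in LN111 (-0.36 and 0.61) and A_43_P11703 in Mat (0.05). Mmp2 on A_44_P1087178 was 6.65 ± 0.45 log2 above MH in LN111, 5.43 ± 0.45 in Mat and 3.23 ± 0.45 in LN511. Mmp23 was 5.47 ± 0.35, 4.11 ± 0.35 and 2.15 ± 0.35 above it, and Timp1 6.78 ± 0.59, 6.04 ± 0.59 and 4.92 ± 0.59. With normexp, Mmp23 stood at 3.86, 2.63 and 0.96, still called. For both metalloproteinases the difference from MH was largest on laminin-111 and smallest on laminin-511.

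Plau ran the other way, with bounds of at least 19.5-fold in LN511, at least 10.4-fold in Mat and at least 3.99-fold in LN111 on A_44_P260036. These bounds hold only for the background subtraction in the deposited signal. With normexp the fitted differences of this probe were smaller, at 2.43 log2 in LN511 and 1.53 in Mat, both still called. In LN111 it stood at 0.61 and was not called. Plat was 7.77 ± 0.21 log2 above MH in LN511, 7.38 ± 0.21 in Mat and 7.16 ± 0.21 in LN111. Mmp14 passed in LN111 (0.57 ± 0.20, adjusted p = 0.0255, and 0.56, adjusted p = 0.0275) and not in Mat (0.37 and 0.34) or LN511 (-0.19 and -0.20). Its call in LN111 was lost without LN111 replicate 3 (0.51 and 0.47), without MH replicate 1 (0.57 and 0.56) and without MH replicate 3 (0.38 and 0.37), and with slide as a block (adjusted p = 0.282 and 0.243). In LN511 its sign turned under quantile scaling (0.56 and 0.59, adjusted p = 0.0156 and 0.0115).

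Within the slide that holds both groups, Mat replicates 1 and 2 against the 3 MH arrays gave 11 called probes of 13 (61.2% of all probes were called in either direction), with Mmp2 at 5.30 on either probe, Mmp23 at 3.98, Timp1 at 5.77 and Plat at 7.37. With slide as a block, 11 probes were called for the mean of the coatings (52.2% of all probes in either direction), 10 for LN111 (42.3%) and 10 for LN511 (43.6%). Besides Mmp14, the calls lost were Mmp23 in LN511 (1.78, adjusted p = 0.0532) and Plau A_44_P260036 in LN111 (2.02, adjusted p = 0.0781).

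**Figure D2:**
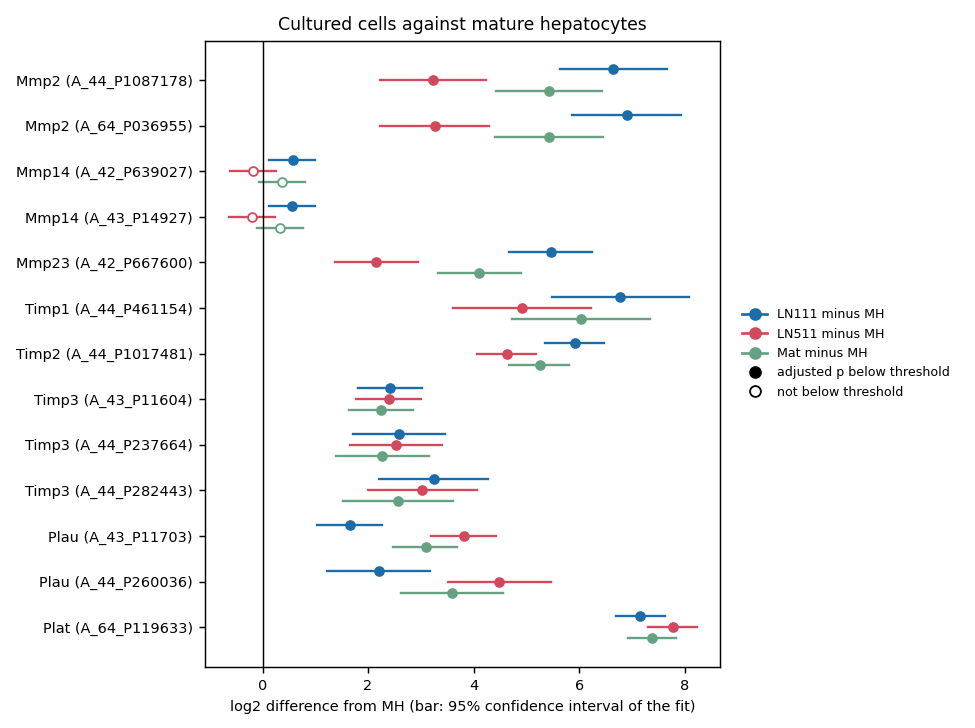
Log2 difference from MH (x axis) with its 95% confidence interval for the 13 tested probes on each coating; filled points passed the threshold. For the Plau probes and 2 of the Timp3 probes no MH array was well above background, so their fitted differences are not bounds. Mmp2, Mmp23 and the inhibitors Timp1 and Timp2 lie farthest right in LN111, Plau and Plat in LN511.

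The next comparison asks which members differ between cells held for 3 h on laminin-111 and on laminin-511. Of the 13 probes, 6 were higher on laminin-111 (6.02% of all 22345 probes tested were) and 2 were lower (11.7% of all probes). The 6 belong to Mmp2, Mmp14, Mmp23 and Timp2, and the 2 are the Plau probes. The median of the 13 was 0.75 log2, beside -0.15 for all probes.

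Mmp2 was higher on laminin-111 by 3.42 ± 0.47 log2 (95% interval 2.34 to 4.51, adjusted p = 0.00416) and by 3.63 ± 0.48 (2.53 to 4.74, adjusted p = 0.00392). Mmp23 was higher by 3.31 ± 0.39 (2.42 to 4.20, adjusted p = 0.00309). Mmp14 was higher by 0.75 ± 0.15 (adjusted p = 0.0122) and 0.76 ± 0.15 (adjusted p = 0.0123) on its overlapping probes, and Timp2 by 1.29 ± 0.27 (0.67 to 1.91, adjusted p = 0.0161). For each of these 6 probes the 3 LN111 arrays lay above the 3 LN511 arrays. The Timp2 call was lost without LN511 replicate 3 (1.18, adjusted p = 0.0613).

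Plau was lower on laminin-111 by 2.16 ± 0.29 (interval of the difference -2.83 to -1.49, adjusted p = 0.00396) and by 2.29 ± 0.42 (-3.26 to -1.32, adjusted p = 0.0103), with no overlap between the groups. With normexp they stood at -1.23 and -1.82, still called. Plat was lower by 0.61 ± 0.22 without passing (adjusted p = 0.0905). Timp1 was at 1.86 ± 0.65 (0.36 to 3.36, adjusted p = 0.0869), and did not pass. It passed with the replicate number as a block (1.86, adjusted p = 0.00505), in unscaled values (2.36, adjusted p = 0.0184), with array weights (1.99, adjusted p = 0.0488) and without LN111 replicate 2, the lowest array of its group (2.33, adjusted p = 0.0469). The 3 Timp3 probes were at 0.02, 0.06 and 0.21, with intervals from -0.46 to 0.51, -0.70 to 0.83 and -0.82 to 1.24.

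These arrays share 1 slide. Within it 8 probes were called again, with the same differences and adjusted p-values from 0.018 for Mmp23 to 0.0473 for Mmp14. Without LN111 replicate 3, the array with many marked spots, 8 were called as well, with Mmp2 at 3.12 and 3.29, Mmp23 at 2.97 and Plau at -2.12 and -1.95. In unscaled values, where the median of all probes moved from -0.15 to 0.34, the calls stood for these 8.

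Mat was set against each laminin in the same fit. Against LN111, 0 of 13 probes were called by limma, as were 0 of all 22345 probes (0% called). At an unadjusted p under 0.05 there were 6 of the 13, and 12.2% of all probes. Mmp2 was higher in LN111 than in Mat by 1.22 ± 0.47 (adjusted p = 0.375) and 1.47 ± 0.48 (adjusted p = 0.342), and Mmp23 by 1.36 ± 0.39 (adjusted p = 0.323). Plau was at -1.44 ± 0.29 (adjusted p = 0.312) and -1.39 ± 0.42 (adjusted p = 0.332). None of the alternatives run called a member.

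Against LN511, Mat differed in 3 probes, each lower in LN511 (1.13% of all probes were). LN511 minus Mat was -2.20 ± 0.47 (adjusted p = 0.0291) and -2.17 ± 0.48 (adjusted p = 0.0327) for Mmp2 and -1.95 ± 0.39 (adjusted p = 0.0214) for Mmp23. Mmp14 was at -0.56 and -0.54 (adjusted p = 0.0589 and 0.0674), Timp2 at -0.61 (adjusted p = 0.232), Plau at 0.72 and 0.90 (adjusted p = 0.19 and 0.263) and Plat at 0.39 (adjusted p = 0.35). With the replicate number as a block, Timp1 passed too (-1.12, adjusted p = 0.0432; 0.375 without the block), and 2937 probes of the array were called in place of 1795.

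The 3 calls did not hold with slide as a block, where Mmp2 was at -2.46 and -2.42 (adjusted p = 0.201 and 0.214) and Mmp23 at -2.20 (adjusted p = 0.156), and 83 probes of the whole array (0.371%) were called. They were lost as well without LN511 replicate 2 (Mmp2 -1.88 and -1.82, Mmp23 -1.77), LN511 replicate 3 (-2.07, -2.05 and -1.90), Mat replicate 1 (-2.03, -2.03 and -1.80) or Mat replicate 3 (-2.07, -2.04 and -1.83). A moderated F test over the 3 coatings called 8 of 13 probes (12.7% of all probes), those of Mmp2, Mmp14, Mmp23, Timp2 and Plau.

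**Figure D3:**
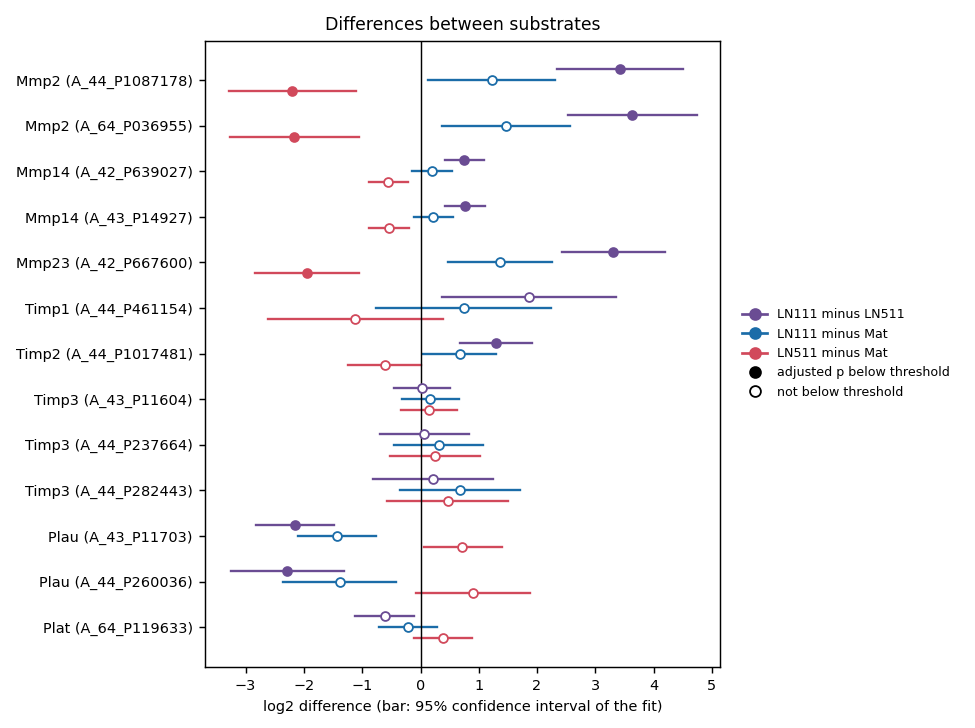
Log2 differences between coatings (x axis) with 95% confidence intervals for the 13 tested probes; filled points passed the threshold. LN111 minus LN511 lies right of 0 for Mmp2, Mmp14, Mmp23 and Timp2 and left of 0 for Plau, and no LN111 minus Mat point is filled.

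Markers of stellate cells and fibroblasts moved with these differences. The 12 markers on the array, among them Col1a1, Col3a1, Dcn, Acta2 and Pdgfrb, had a summed signal of 98.4 to 165 in LN111, 44.8 to 70.1 in Mat, 4.94 to 22.8 in LN511 and 3.86 to 5.73 in MH. On every array of a group, 11 of 12 were well above background in LN111, 11 in Mat, 10 in LN511 and 8 in MH; Lum was on no LN511 array, and Lum and Tagln were on no MH array. The order of the coatings in this sum is that of Mmp2 and Mmp23 and the reverse of that of Plau. Within a coating, Plau A_44_P260036 did not keep the reverse order throughout. It fell as the sum rose in LN111, was mixed in Mat and rose with the sum in LN511. There the sums were 22.8, 4.94 and 8.44 and the Plau levels -0.45, -1.66 and -1.31. The part of these cells in the results was not tested.

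Other lists moved differently. Biliary and progenitor markers summed to 38.1 to 87.2 in LN511, 26.7 to 60.4 in Mat, 9.69 to 46.3 in LN111 and 0.708 to 0.779 in MH, where Krt7, Krt19, Sox9 and Spp1 were on no array. The 5 mesothelial markers on the array summed to 8.09 to 34.6 on the coatings and 0.345 to 0.447 in MH. The 10 Kupffer cell markers, all well above background in MH, were highest there (31.1 to 33.2, against 0.255 to 3.43), and so were the 8 of sinusoidal endothelium on the array (10.9 to 12.4, against 0.131 to 3.38). Marco, Cd5l and Adgre1 were on no cultured array, nor were Lyve1, Pecam1 and Plvap. Their part in the differences from MH was not tested.

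**Figure D4:**
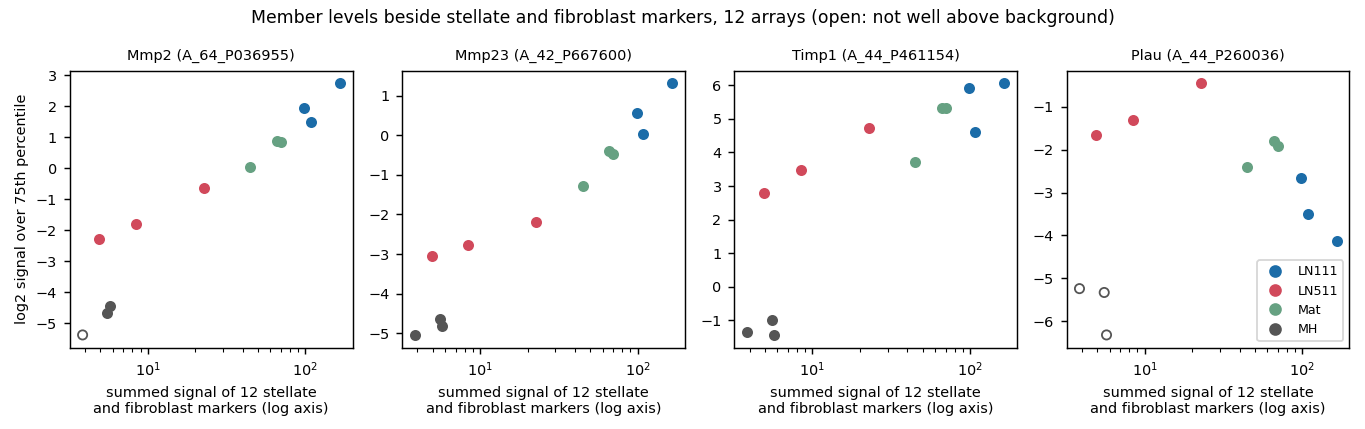
Level (y axis) of Mmp2, Mmp23, Timp1 and Plau, 1 probe each, against the summed signal of the 12 stellate cell and fibroblast markers (x axis, log scale) on the 12 arrays. From LN511 over Mat to LN111 both the marker sum and Mmp2 and Mmp23 are higher, and Plau is lower; the MH arrays, at sums of 3.86 to 5.73, lie below the LN511 arrays in all 4 panels.

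The genes most like the 2 members with the widest range were taken by Pearson's r over the 9 cultured arrays, among 13214 probes, as a description. For Mmp2 they were Lxn, Clec2dl1 and Sparc (0.997 each), and for Mmp23 Gpx7 and C1qtnf6 (0.998 each) and Fstl1 (0.997). The 9 points are 3 groups of 3 arrays that share their scaling, so a gene that steps between the coatings reaches a high r. Sparc encodes a collagen-binding matrix glycoprotein and Fstl1 a secreted follistatin-like protein.

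Other genes of matrix proteolysis were described by lists, with 1 probe standing for a gene. Of 38 other metalloproteinases on the array, 27 were tested, and 16 were higher and 8 lower in the cultured cells than in MH, with a median of 1.70 log2. Among the 16, Adam9, Adamts5, Adamts15, Mmp3, Mmp10 and Mmp11 were well above background on no MH array. They were tested only because they were bright in cultured cells, which fixed their direction. The share of all genes holds such genes too. Of all genes tested this way, 30.8% were higher and 41.9% lower, with a median of -0.18. Mmp24, a membrane-type enzyme, was higher by 7.21 ± 0.17 (adjusted p = 5.74e-10), but was well above background on 1 of 3 MH arrays, so the size rests on dim MH signals. The secreted Adamts15, which cuts versican and aggrecan, was at least 52.7-fold higher (adjusted p = 3.61e-07). The membrane proteins Adam19 and Adam12 were higher by 4.38 ± 0.33 (adjusted p = 8.5e-07) and 4.45 ± 0.38 (adjusted p = 2.26e-06). Mmp15, Mmp19 and Mmp25 were among the 8 that were lower. With each coating set against MH alone, 4 genes were lower in LN111, 7 in LN511 and 7 in Mat. Adamts7, Adamts12, Adamts14 and Mmp16 were lower in the mean and in LN511 and were not called in LN111.

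On laminin-111, 11 of these 27 genes were higher than on laminin-511 and 2 lower, with a median of 0.79 (6.15% and 11.7% of all genes, median -0.15). Among the 27, Adamts12, Adamts14 and Mmp16 were well above background on no LN511 array. They were tested only because they were bright on LN111 or Mat, which fixed their direction here. The share of all genes holds such genes too. Adamts7 was higher by 2.27 ± 0.21 (adjusted p = 0.00207), Adamts2, which trims procollagen, by 2.65 ± 0.35 (adjusted p = 0.00396) and Adam12 by 3.73 ± 0.50 (adjusted p = 0.00396). Adamts14, on no LN511 array, was at least 2.5-fold higher (adjusted p = 0.002). The 2 lower genes were Mmp24 and Tll1. Between LN511 and Mat, 4 genes were lower in LN511 (Adamts7, Adamts12, Adamts14 and Adam12) and Tll1 was higher, beside 1.13% of all genes lower and 6.97% higher. Of these, Adamts12 and Adamts14 were read on no LN511 array and passed the filter only through other coatings. Their calls were thus not free in direction. Between LN111 and Mat 0 were called, as were 0 of 18068 genes.

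Among 12 other inhibitors and inducers of metalloproteinases, 7 were higher and 3 lower in the cultured cells than in MH (30.8% and 41.9% of all genes). Pcolce, which enhances procollagen processing, rose by 2.71 ± 0.17 (adjusted p = 1.97e-07), the TIMP1 receptor component Cd63 by 2.97 ± 0.28 (adjusted p = 5.2e-06) and the membrane inhibitor Reck, read above background on 1 of 3 MH arrays, by 2.20 ± 0.25 (adjusted p = 2.24e-05). Tfpi2, a Kunitz-type inhibitor, was at least 23.4-fold higher (adjusted p = 5.07e-06). It was well above background on no MH array and was tested only because it was bright in cultured cells. That fixed its direction, and the share of all genes holds such genes too. On laminin-111, 5 of the 12 were higher than on laminin-511 and 0 lower (6.15% and 11.7% of all genes). The higher genes include Tfpi2 (4.17 ± 0.84, adjusted p = 0.0138) and Lrp1, the receptor that clears proteases and their inhibitors (1.89 ± 0.29, adjusted p = 0.00548).

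Of 19 genes of the plasminogen system, 6 were higher and 10 lower in the cultured cells than in MH, with a median of -0.90 log2. With 30.8% of all genes higher and 41.9% lower, these counts are near the background and say nothing particular of the system. S100a10 and Anxa2, which together form a plasminogen receptor on the cell surface, rose by 6.89 ± 0.17 (adjusted p = 7.19e-10) and 6.49 ± 0.21 (adjusted p = 3.06e-09), and the intracellular serpin Serpinb6 by 3.37 ± 0.19 (adjusted p = 1.11e-07). The urokinase receptor Plaur and the serpin Serpinb2 were also higher. Klkb1, which encodes plasma prekallikrein, fell by 6.36 ± 0.20 on the log2 scale (adjusted p = 2.56e-09). The substrate Plg and the plasma proteins F12, Vtn, Cpb2 and Serpinf2 were among the lower genes, all products of hepatocytes. Between the laminins 3 of 17 were called, each higher on laminin-111, where Plau was lower (6.15% of all genes were higher and 11.7% lower). They include Serpinb2 (4.79 ± 1.10, adjusted p = 0.0226, well above background on 2 of 3 LN511 arrays) and Thbd, a thrombin receptor (2.76 ± 0.67, adjusted p = 0.027). Plaur was not called in that comparison.

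**Figure D5:**
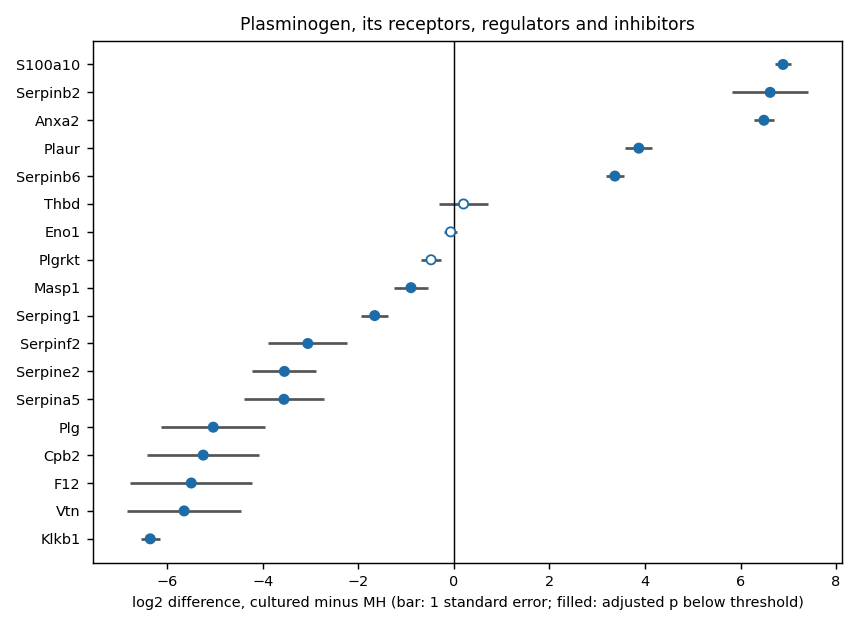
Log2 difference of the cultured cells from MH (x axis, bar: 1 SE) for tested genes of the plasminogen system other than Plau and Plat; filled points passed the threshold. The receptor genes S100a10 and Anxa2 lie at 6.89 and 6.49, and Klkb1 at -6.36.

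Of 16 serine proteases and inhibitors of the cell surface, 6 were higher and 6 lower in the cultured cells, which is near the share of all genes (30.8% and 41.9%). The membrane protease St14 (matriptase) rose by 5.52 ± 0.28 (adjusted p = 5.33e-08), its inhibitor Spint1 was at least 140-fold higher (adjusted p = 1.11e-08), and Furin, which cuts the propeptides of membrane-type metalloproteinases, fell by 1.77 ± 0.12 (adjusted p = 3.34e-07). Spint1 was well above background on no MH array, so the filter fixed its direction against MH. Like Plau, St14 and Spint1 were lower on laminin-111 than on laminin-511, by 1.82 ± 0.30 (adjusted p = 0.0074) and 1.47 ± 0.20 (adjusted p = 0.00396), whereas the secreted Htra1 was higher by 2.73 ± 0.35 (adjusted p = 0.00363). Of 16 cathepsins and other matrix-degrading enzymes, 5 were higher and 5 lower than in MH, again near those shares, with a median of -0.08. Ctsk, a collagen-degrading cathepsin, was higher on laminin-111 than on laminin-511 by 4.06 ± 0.73 (adjusted p = 0.00941). Of the 15 tested there, 5 were higher and 0 lower (6.15% and 11.7% of all genes).

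RefSeq promoter windows (250 bases before to 50 after the start, GRCr8) matched 6 of the 10 members: Mmp7, Mmp23, Timp1, Timp2, Timp3 and Plau. They were searched on both strands for the AP-1 site TGANTCA, held by 7.33% of 33469 such windows, and for the TATA box TATAAA, held by 14.2%. The box CCAAT was held by 37.5% and the GC box GGGCGG by 33.1%. Mmp23 had GC boxes starting at -79 and -59 and Plau at -122, -104 and -87, and neither window holds the letters of the AP-1 or TATA motif. The 250 bases before their starts are printed because these genes moved in opposite directions between the laminins; GC boxes are in capitals. They lie at chr5:171524535-171524784 and chr15:3511988-3512237, both on the minus strand.
Mmp23 promoter: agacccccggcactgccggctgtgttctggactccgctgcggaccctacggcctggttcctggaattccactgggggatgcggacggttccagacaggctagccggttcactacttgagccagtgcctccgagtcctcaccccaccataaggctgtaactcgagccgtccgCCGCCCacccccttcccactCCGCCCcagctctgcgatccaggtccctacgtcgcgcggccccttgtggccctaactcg
Plau promoter: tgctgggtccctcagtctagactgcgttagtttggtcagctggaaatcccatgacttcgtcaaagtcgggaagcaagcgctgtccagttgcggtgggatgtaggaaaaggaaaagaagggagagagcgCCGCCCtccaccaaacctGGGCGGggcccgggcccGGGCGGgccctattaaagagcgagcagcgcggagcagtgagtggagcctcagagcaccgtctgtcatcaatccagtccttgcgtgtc
Single GC boxes started at -142 for Timp1 and -54 for Timp2, and Timp3 had 3, at -158, -130 and -75, with a CCAAT box at -87. In the Mmp7 window AP-1 starts at -80 and TATA boxes at -140 and -43, and CCAAT boxes at -222 and -144. A match is a description of the letters, not of a bound factor.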

How the data were processed

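RNA from 12 samples (100 ng each, per the labels' protocols) was labelled with Cy3 for single-colour Agilent arrays. The deposited intensity is the processed signal of Agilent Feature Extraction (10.7, per the submitters' processing notes), background-subtracted per the file headers. The authors' deposited value table holds the same intensity on a linear scale, unscaled and uncentred (no value differed by more than 0.0072 log2; column medians 23.6 to 90.9), and as a single-colour signal has no direction.

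Spots marked as outliers were left out, spots of a probe were averaged on the linear scale (45489 of 45598 probes kept), and log2 of the signal minus the array's 75th percentile was computed. Testing required a group whose 3 arrays were each well above background. limma 3.58.1 (lmFit and eBayes, two-sided) in R 4.3.3 was run on all 12 arrays for comparisons with MH and on the 9 cultured arrays for the coatings, with Benjamini-Hochberg adjustment over all probes tested at a threshold of 0.05; these steps were tested on simulated data. Pathway genes stand as their brightest tested probe, and at most 4 a list, those of smallest p, are given with values. Every member probe is named. Members and lists were chosen with earlier results of these data known.

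Replicates of the same number were checked for pairing. Their deviations from group means correlated at 0.12 to 0.72 for LN511 and Mat. The labels state no pairing, and LN511 replicate 3 correlated more with Mat replicate 1 (0.19) than with Mat replicate 3 (0.12). The reported tests used no pairing, and the replicate number entered as a block in an alternative only. The other pairs of groups had at least 1 correlation of 0.08 or less. Slides were read from the array identifiers. Alternatives were the background correction, scaling, filters, spot marks, array weights, variance prior, slide, pairing, samples in the fit, each replicate left out, and the authors' table. Protein sequences were not used here, and a few listed genes are not reported here by name.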

Additional observations from a re-analysis of the deposited data

Results flagged for a closer look

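These member probes differed between coatings in a test of the difference itself (limma, adjusted p under 0.05, 3 arrays a group). For LN111 minus LN511 the log2 differences were 3.42 and 3.63 (Mmp2), 3.31 (Mmp23), 0.75 and 0.76 (Mmp14), 1.29 (Timp2), and -2.16 and -2.29 (Plau), with each LN111 array on 1 side of the LN511 arrays. For LN511 minus Mat they were -2.20 and -2.17 (Mmp2) and -1.95 (Mmp23). With 3 arrays a group, no single array was tested as an outlier.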

How the results depend on the processing

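Of the alternatives for the 8 member probes called between LN111 and LN511, 187 of 188 values kept direction and call; Timp2 without LN511 replicate 3 did not. For LN111 against Mat, 306 of 306 values stayed uncalled. For LN511 against Mat, 3 probes were called as reported (8.03% of all probes were, in either direction), 11 with array weights (42.9%), 8 unscaled (59.6%), 6 with normexp (22.5%), 6 with quantile scaling (6.08%), 5 with a trended robust prior (7.45%), 0 with the slide block (0.371%), 0 within slide 2, where Mat is 1 array assumed to vary like the other groups (0.423%), and 0 to 3 with 1 replicate left out (3.18% to 9.34%); the cause was not tested. With the replicate block, 4 were called for LN511 against Mat (13.1% of all probes) and 9 for LN111 against LN511 (26.8%). The latter were 8 without the block, and Timp1 was added (1.86, adjusted p = 0.00505). For LN111 against Mat 0 were called (0%), and 9 in the F test (21.4%). The replicate numbers are not stated to pair samples, and 7 of 9 cultured arrays correlated best with their own number. The F test called 5 with 1 probe a gene (12.9% of all), 5 unfiltered (5.28%) and 4 with the slide block (6.91%). With 1 replicate left out it called 4 to 8 (5.85% to 16.1%). With 1 probe a gene, which leaves fewer members, 5 were called for LN111 against LN511 (18% of all) and 8 for LN111 against MH (66.7%). For LN511, Mat and all coatings against MH there were 7 each (67.6%, 67.2% and 72.8%). The strict filter, which drops probes dim on any array, gave 8, 6, 6 and 6 for the comparisons with MH (65.9%, 65.5%, 66.7% and 71.8%). Among differences called in either fit, signs turned for Mmp14, LN511 minus MH, under quantile scaling (0.56 and 0.59), Plau A_43_P11703, LN111 minus MH, with normexp (-0.36) and with signals raised to background (-0.06), Timp3, Mat minus MH, with normexp (-0.28 and -0.12), and Timp3 A_43_P11604, LN511 minus Mat, unscaled (-0.95). Leaving out scaling moved the median of all probes in that comparison from 0.13 to -0.96, and uncalled values moved with it: Plat to -0.70, Plau to -0.37 and -0.20 and the other Timp3 probes to -0.85 and -0.63. Uncalled values near 0 changed sign too, for Mmp14 in LN511 minus MH, for Mmp14 (-0.40 and -0.38, unscaled) and 2 Timp3 probes in LN111 minus Mat, and for the 3 Timp3 probes in LN111 minus LN511. Probes near background have poor precision, and Plau and 2 Timp3 probes were dim on every MH array. The background correction (normexp) and the scaling changed the share of called probes that were higher in cultured cells than in MH from 43.1% to 25.6% (normexp), 56.2% (quantile) and 78.5% (unscaled), from 33.9% to 22.3%, 50.1% and 77.4% for LN111 against LN511, and from 85.9% to 96.2%, 65.9% and 3.9% for LN511 against Mat.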
